A study of Mus musculus with 4 samples.

Results

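The cytosolic ribosomal protein genes were examined in the stomach of FVB mice labelled Hdc+/+ or Hdc-/-, all at an age of 1 year. Hdc is the gene of histidine decarboxylase, which produces histamine. Both groups shared the strain, the age and the tissue, and no other treatment is given in the labels. Total RNA was measured on 4 Affymetrix arrays, 2 of each genotype, called Hdc+/+ arrays 1 and 2 and Hdc-/- arrays 1 and 2 here. Biological replication is stated in the titles without further detail on the animals, so p-values measure only the spread between these samples. Members were all genes whose symbol starts with Rpl or Rps and a digit, together with Rplp0, Rplp1, Rplp2 and Rpsa, without the Rps6k kinases and the genes named as pseudogenes. The rule found 69 of the 22180 genes measured by a probe set with 1 symbol.

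The ribosome is built from a large (60S) and a small (40S) subunit, each a core of ribosomal RNA covered by proteins, most of them in a single copy. Cells make these proteins in balanced amounts, and their mRNAs share a pyrimidine run at the very start, the 5′ terminal oligopyrimidine (TOP) motif, through which the growth-regulating kinase complex mTORC1 controls their translation. In the stomach, secretory cells such as chief and mucous cells devote much of their translation to exported protein.

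The label held for most members. Of 77 standard ribosomal protein symbols that follow these names, 58 were members, 35 of the 60S subunit and 23 of the 40S subunit. Another 12 occurred only on probe sets that carry several symbols, and the remaining 7 were not analysed here. The other 11 members were not standard ribosomal proteins. Of these, 10 were copies, among them the testis copies Rpl10l and Rpl39l and the muscle copy Rpl3l. Rps19bp1 met the rule by its name alone, since it encodes a binding partner of Rps19. Signals are given on the log2 scale, on which a difference of 1 is a doubling, and all differences are Hdc-/- minus Hdc+/+. Because probe sets differ in how brightly they bind, signals were compared between arrays for a gene and not between genes.

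The series had 1 value table with 41345 probe sets, and array medians ran from 4.05 to 4.15. The 12 measured gastric genes ran from 5.18 to 13.35. Gkn2, a surface mucous cell gene, lay between 13.23 and 13.35 and the proton pump gene Atp4a between 10.4 and 11.1. Their median difference was -0.07, with 2 higher without overlap and 1 lower, against 21.5% and 17.6% of all genes. The 2 higher ones were Cblif (1.07, SE 0.25) and Pgc (0.64, SE 0.25), which chief cells express. Both were lowest on Hdc+/+ array 2 and highest on Hdc-/- array 2, the order that the members had. Hdc itself read 3.99 and 3.82 on the Hdc+/+ arrays and 3.77 and 4.06 on the Hdc-/- arrays (difference 0.01, SE 0.19), so it could not check the genotype labels and every direction rests on the labels. All 12 hepatocyte genes read lower on both Hdc-/- arrays, with a median difference of -3.57. Around their gene means the hepatocyte genes had medians of 0.70 and 2.87 on Hdc+/+ arrays 1 and 2, and of -1.90 and -1.70 on Hdc-/- arrays 1 and 2. The 8 measured pancreatic acinar genes had a median of 2.54 on Hdc+/+ array 2 and of -1.53, -0.71 and -0.61 on the others. Median differences of intestinal, squamous and adipocyte genes were -0.91, -0.76 and -1.15. The hepatocyte genes were therefore higher on both Hdc+/+ arrays, and further up on array 2. Without Hdc+/+ array 2 their median difference was -2.49, so leaving that array out did not remove it. The pancreatic median was high on Hdc+/+ array 2 alone. Several medians and genes are also given with an array left out.

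Some members had the TOP feature at their annotated start in the RefSeq promoter table of build GRCm38.p6, which held 54 of the 69 members and 45 of the 58 standard ones. The 6 windows below are those of the standard members with the smallest unadjusted p among the ones whose annotated start begins with a C and at least 4 further pyrimidines. Each runs from 30 bases before to 15 bases after the start, and capitals mark the pyrimidine run at the start.
Rps27 (chr3:90213634-90213678, minus strand): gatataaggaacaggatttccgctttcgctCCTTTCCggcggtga
Rpl38 (chr11:114668550-114668594, plus strand): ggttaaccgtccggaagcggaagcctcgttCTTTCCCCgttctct
Rpl15 (chr14:18270972-18271016, minus strand): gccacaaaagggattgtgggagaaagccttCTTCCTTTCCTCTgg
Rps6 (chr4:86857353-86857397, minus strand): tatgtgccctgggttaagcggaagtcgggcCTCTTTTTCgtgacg
Rpl35 (chr2:39005117-39005161, minus strand): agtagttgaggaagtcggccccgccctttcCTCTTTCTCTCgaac
Rps10 (chr17:27635230-27635274, minus strand): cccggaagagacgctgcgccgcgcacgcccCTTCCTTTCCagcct
In these 6 windows the run was between 7 and 13 bases long. Of the 3 members that were higher at an unadjusted p under 0.05, Rpsa and Rps4x had a window, and their annotated starts lay in other sequence:
Rpsa (chr9:120127736-120127780, plus strand): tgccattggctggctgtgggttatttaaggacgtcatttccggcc
Rps4x (chrX:102189377-102189421, minus strand): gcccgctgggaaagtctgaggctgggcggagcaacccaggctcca

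Over all 45 standard members with a window, 10 (22.2%) had a C followed by 4 pyrimidines at the annotated start, against 3.01% of the 27025 genes in the table. In the 50 bases before and 50 after the start, the sense strand, which reads like the mRNA, was searched first. A run of at least 8 pyrimidines that begins with a C lay on it in 38 members (84.4%), against 32.0% of all genes. On the opposite strand 8 members (17.8%) had such a run, against 34.4% of all genes. The letters CTTTCC, which can lie inside such a run, stood on the sense strand of 13 members (28.9%) against 5.43% of all genes, and on the opposite strand of 1 member (2.22%) against 5.12%. The letters CCGGAAG, a core that ETS-family factors bind, stood on the sense strand of 7 members (15.6%) against 3.18%, and on the opposite strand of 5 (11.1%) against 3.16%. These matches describe letters in a window and not sites of binding.

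Most ribosomal protein genes read slightly higher on the Hdc-/- arrays, and none passed the test over all genes. The median difference over the 69 members was 0.21, or 1.16-fold, against 0.02 over all genes. A positive difference was seen for 52 members (75.4%), against 54.1% of all genes. Both Hdc-/- arrays lay above both Hdc+/+ arrays for 34 members (49.3%), against 21.5% of all genes, and below them for 6 members, against 17.6%. By limma with Benjamini-Hochberg adjustment 0 members passed at 0.05 in either direction, against 0.00451% of all genes higher and 0% lower, and the smallest adjusted p of a member was 0.508. At an unadjusted p under 0.05, 3 members were higher, against 3.68% of all genes, and 3 were lower, against 4.87%. With an array left out, the lone array of its genotype was assumed to vary like the other pair. The count of higher ones was then 0 without Hdc+/+ array 2, against 1.59% of all genes, and 0 without Hdc-/- array 2, against 4.62%. It was 11 (15.9%) without Hdc-/- array 1, against 4.05%. The count of lower ones was 0 or 1 with any array left out. No single member's difference was thus large enough against the spread between arrays to be called.

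**Figure D1:**
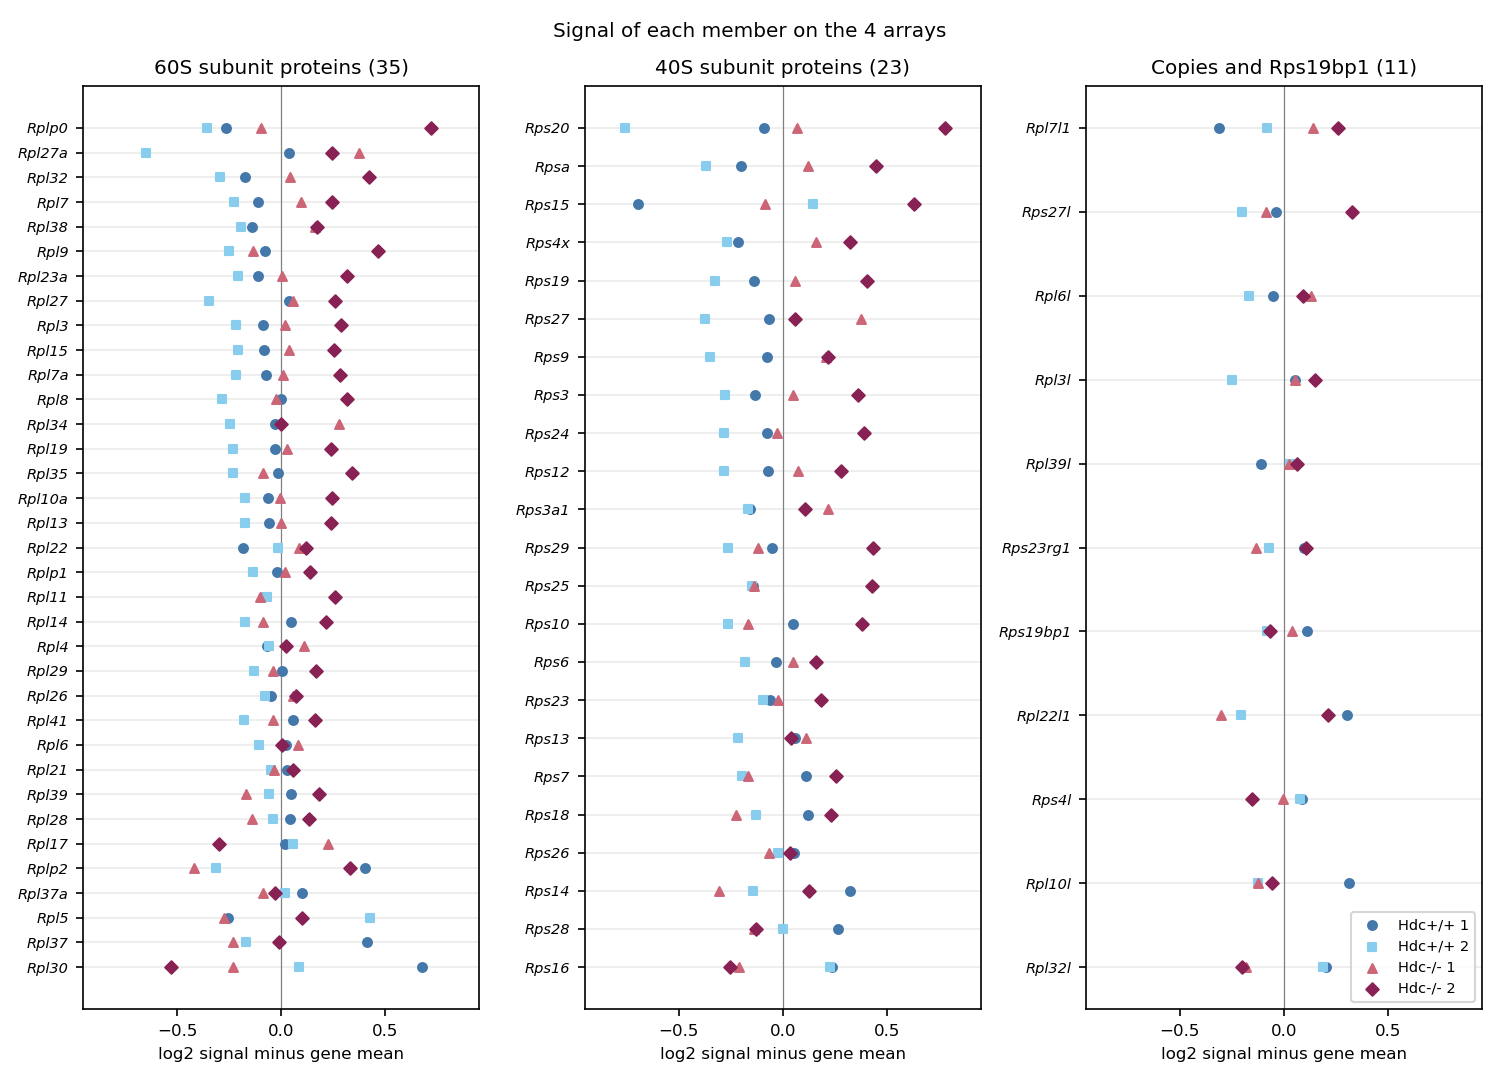
Log2 signal minus the gene mean (x axis) of each of the 69 members (rows) on the 4 arrays, in panels for the 60S proteins, the 40S proteins and the copies with Rps19bp1. Hdc+/+ array 2 (light squares) is lowest for 46 members and Hdc-/- array 2 (dark diamonds) is highest for 46.

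The arrays of a genotype did not lie together for the members. Around their gene means, the members had medians of -0.03 and -0.18 on Hdc+/+ arrays 1 and 2, and of -0.01 and 0.21 on Hdc-/- arrays 1 and 2. Hdc+/+ array 1 and Hdc-/- array 1 thus lay close together, with Hdc+/+ array 2 below and Hdc-/- array 2 above them. Hdc-/- array 2 was the highest array for 46 members, against 29.6% of all genes, and Hdc+/+ array 2 the lowest for 46, against 29.9%. Both held for 37 members (53.6%), against 13.3% of all genes. Without Hdc-/- array 2 the median difference of the members was 0.11, and without Hdc+/+ array 2 it was 0.14. It was 0.28 without either of the first arrays. Hdc+/+ array 2, the array lowest for members, was also the one with the highest median for the hepatocyte and pancreatic genes. The same held for the intestinal (1.19), adipocyte (0.87), squamous (0.41) and smooth muscle genes (0.19). It did not hold for the gastric, T and B lymphocyte and proliferation genes. The part of other organs or tissues in the difference was not tested. In whole tissue, more cells rich in ribosomes in the Hdc-/- samples and more ribosomal protein mRNA per cell cannot be told apart.

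The differences varied with how bright the probe set was. The 49 members above the median signal of all genes (4.59) had a median difference of 0.28, and 44 of them (89.8%) were positive, against a median of 0.03 and 54.7% positive among all genes above that signal. Their median was 0.17 without Hdc+/+ array 2 and 0.15 without Hdc-/- array 2. The groups did not overlap for 31 of these members in the higher direction (63.3%), against 24.8% of the genes above it, and for 2 in the lower direction, against 19.5%. By limma 0 of the 49 passed after adjustment, against 0.00902% of those genes higher and 0% lower. An unadjusted p under 0.05 was reached by 3 in the higher direction, against 4.63%, and by 0 in the lower direction, against 6.11%. Hdc-/- array 2 was highest for 39 of them, against 26.6%, and Hdc+/+ array 2 lowest for 42, against 25.4%. Both held for 36, against 12.1%. The 20 members at or below it had a median of -0.08, and 8 of them were positive. All 3 members that were lower at an unadjusted p under 0.05 were among these dim ones. Of the 14 dim standard members, 7 also appear on probe sets that carry several symbols, as given further on.

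**Figure D2:**
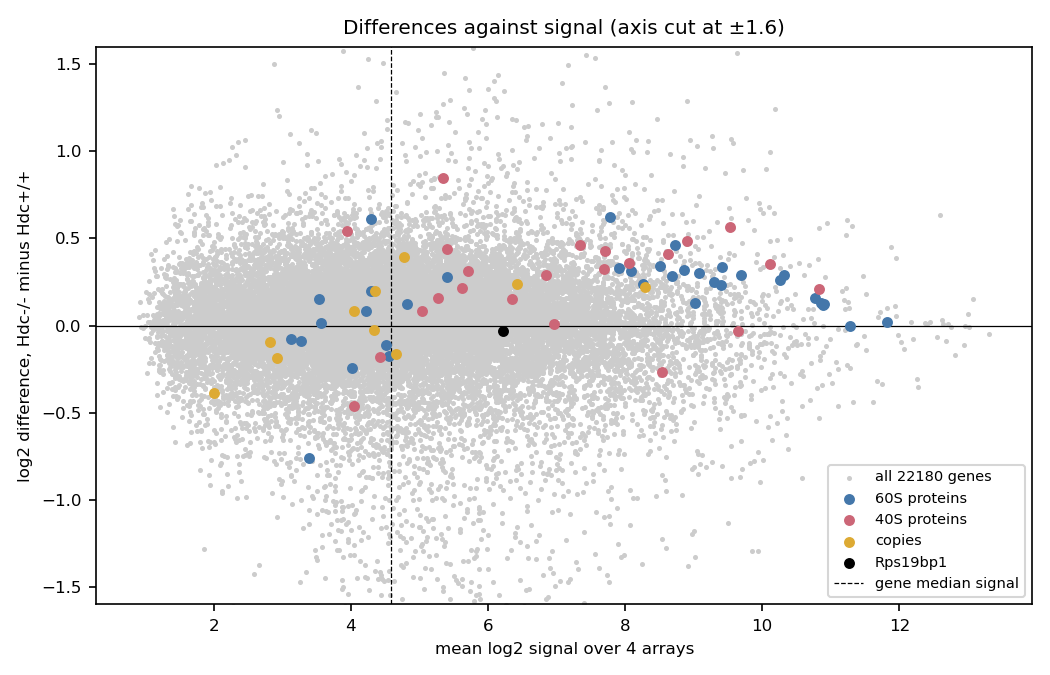
Log2 difference between genotypes (y axis) against the mean log2 signal over the 4 arrays (x axis) for all 22180 genes in grey and the members in colour; the y axis is limited, so the genes with the largest differences are not shown. The dashed line is the median gene signal of 4.59. To its right 44 of 49 members lie above 0, and to its left 8 of 20.

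Among proteins of the small subunit the median difference over 23 genes was 0.31 (1.24-fold), and 0.16 without Hdc-/- array 2. Of them, 19 were positive (82.6%), against 54.1% of all genes. Without overlap 13 were higher (56.5%) and 2 lower (8.70%), against 21.5% and 17.6% of all genes. Rpsa, which also serves as a laminin receptor at the cell surface, read 9.33 and 9.17 on the Hdc+/+ arrays and 9.66 and 9.98 on the Hdc-/- arrays. Its difference was 0.57 (SE 0.19, n = 2 per group, limma unadjusted p = 0.0263, adjusted p = 0.513). Every Hdc-/- value of Rpsa lay above every Hdc+/+ value, and a dimmer second probe set differed by 0.44.

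Rps4x, the X-linked gene of a small-subunit protein, read 8.68 and 8.63 against 9.06 and 9.22. The difference of 0.48 (SE 0.16, limma unadjusted p = 0.0277, adjusted p = 0.522) ran from 0.40 to 0.57 with each array left out in turn. Rps20, a protein of the 40S head, had the largest difference of any member. It read 5.26 and 4.59 against 5.42 and 6.13, a difference of 0.85 (SE 0.33, limma unadjusted p = 0.0449, adjusted p = 0.571). The groups did not overlap for Rps20, yet Hdc+/+ array 1 and Hdc-/- array 1 lay close to each other. The difference was 0.49 without Hdc-/- array 2 and 0.51 without Hdc+/+ array 2, and a second, dimmer probe set differed by 0.18.

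Rps9, which sits near the path of the mRNA into the subunit, read 7.64 and 7.36 against 7.92 and 7.93 (difference 0.43, SE 0.18). Rps19, the gene most often mutated in Diamond-Blackfan anaemia, read 7.21 and 7.02 against 7.41 and 7.75 (difference 0.46, SE 0.19). Both were higher without overlap and had adjusted p of 0.588 and 0.594 by limma. The difference of Rps19 was 0.29 without Hdc-/- array 2. Rps3, at the mRNA entry, Rps24 and Rps12 were also higher without overlap, with differences of 0.41, 0.36 and 0.35, which were 0.25, 0.15 and 0.25 without Hdc-/- array 2. Rps6, the protein that S6 kinases phosphorylate and one of the genes whose start is printed above, read 10.80 and 10.65 against 10.88 and 10.99, a difference of 0.21 (SE 0.16) that was 0.14 without Hdc+/+ array 2. Rps26 and Rps18 differed by -0.03 and 0.01, with errors of 0.16 and 0.22.

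Rps16 and Rps28 went the other way. Rps16, whose protein reaches towards the peptidyl tRNA, read 4.27 and 4.26 on the Hdc+/+ arrays and 3.83 and 3.79 on the Hdc-/- arrays, a difference of -0.46 (SE 0.16, limma unadjusted p = 0.0276, adjusted p = 0.522). Its probe set was below the median gene signal. A brighter probe set that lists Rps16 with 2 further symbols read 9.31 and 9.18 against 9.31 and 9.90, so the probe sets that name Rps16 did not share a direction. Rps28, at the mRNA exit, read 8.80 and 8.54 against 8.40 on both Hdc-/- arrays, a difference of -0.27 (SE 0.17, limma adjusted p = 0.723) that was -0.14 without Hdc+/+ array 1. Rps28 was the 1 standard member above the median signal that was lower without overlap. Over the 9 measured genes listed for the mRNA channel and decoding site the median difference was 0.01, from -0.46 (Rps16) to 0.55 (Rps15). The list did not hold Rps9, and Rps14, Rps15 and Rps16 were read on probe sets below the median gene signal.

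Among proteins of the large subunit the median difference over 35 genes was 0.20 (1.15-fold), and 0.12 without Hdc-/- array 2. Of them, 28 were positive (80%), against 54.1% of all genes. Without overlap 18 were higher (51.4%) and 2 lower (5.71%), against 21.5% and 17.6% of all genes. The 24 of them above the median gene signal had a median of 0.27 (0.16 without Hdc+/+ array 2 and 0.13 without Hdc-/- array 2), and 23 were positive. The exception was Rpl28, with a difference of -0.01 (SE 0.18). Rpl32 read 8.56 and 8.44 against 8.77 and 9.15, a difference of 0.46 (SE 0.20, limma adjusted p = 0.594) that was 0.28 without Hdc-/- array 2. Rpl27a read 4.32 and 3.64 against 4.66 and 4.53, a difference of 0.61 (SE 0.26, limma adjusted p = 0.594), which was 0.27 without Hdc+/+ array 2. Rpl38, a protein needed to translate certain patterning genes of the embryo, read 9.28 and 9.23 against 9.58 and 9.59 (difference 0.33, SE 0.16). The Rpl38 pairs were close within each genotype, and its difference stayed between 0.31 and 0.36 with each array left out. Rpl15 (0.29), Rpl7 (0.34), Rpl7a (0.29), Rpl3 (0.30) and Rpl19 (0.26) were higher without overlap as well, and lay between 0.15 and 0.26 without Hdc-/- array 2.

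The stalk recruits the factors that drive translation, and its proteins differed among themselves. Rplp0, the stalk base, read 7.51 and 7.42 on the Hdc+/+ arrays and 7.68 and 8.50 on the Hdc-/- arrays, a difference of 0.62 (SE 0.29, limma adjusted p = 0.623). Its difference was 0.22 without Hdc-/- array 2, the array that set it apart, and its second probe set differed by 0.09. Rplp1 read 10.75 and 10.64 against 10.79 and 10.91, with a difference of 0.16 (SE 0.16), which was 0.096 without Hdc-/- array 2. Rplp2, on a dim probe set, read 3.68 and 2.96 against 2.86 and 3.61, and its groups overlapped (difference -0.09, SE 0.35). Rpl5 and Rpl11, which bind 5S ribosomal RNA and off the ribosome can bind Mdm2, the inhibitor of p53, were dim and overlapped too. Rpl5 differed by -0.17 (SE 0.28) and Rpl11 by 0.15 (SE 0.19). Over the 8 measured proteins that line the peptide exit tunnel or its rim the median was 0.16. Without overlap 5 of them were higher (62.5%) and 0 lower, against 21.5% and 17.6% of all genes.

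Rpl30 had the largest negative difference of any member. It read 4.06 and 3.47 on the Hdc+/+ arrays and 3.16 and 2.86 on the Hdc-/- arrays, a difference of -0.76 (SE 0.25, limma unadjusted p = 0.0254, adjusted p = 0.508) that was -0.46 without Hdc+/+ array 1. The 3 probe sets that list Rpl30 together with predicted genes differed by 0.21, 0.16 and 0.68, opposite in sign to the probe set that lists it alone. Rpl37a, a zinc-binding protein, was lower without overlap by -0.11 (SE 0.16), while the probe set that lists it with a microRNA differed by 0.52. Rpl37 differed by -0.24 (SE 0.24), and its groups overlapped.

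The 10 copies had a median difference of 0.03, with 5 positive. Rpl7l1, a relative of Rpl7, read 4.46 and 4.69 against 4.91 and 5.03, a difference of 0.40 (SE 0.17, limma adjusted p = 0.602), and was higher without overlap. Rpl6l (0.22, SE 0.16) and the muscle copy Rpl3l (0.20, SE 0.18) were higher without overlap, and Rpl3l differed by 0.049 without Hdc+/+ array 2. Rps27l, a copy that p53 can induce, differed by 0.24 (SE 0.20), or 0.030 without Hdc-/- array 2, and its groups overlapped. Rpl32l read 2.21 and 2.19 against 1.82 and 1.80, a difference of -0.39 (SE 0.16, limma unadjusted p = 0.0498, adjusted p = 0.584), while the standard gene Rpl32 differed by 0.46. The probe set of Rpl32l was below the median gene signal. Rps4l was lower without overlap (-0.16, SE 0.16; -0.086 without Hdc-/- array 2). Rpl10l (-0.19, SE 0.20), Rpl22l1 (-0.09, SE 0.26), Rpl39l (0.08, SE 0.16), the retrogene Rps23rg1 (-0.03, SE 0.18) and the binding partner Rps19bp1 (-0.03, SE 0.17) had overlapping groups.

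Where a member had several probe sets of its own, most of the brighter ones were positive as well. There were 25 such members, with 41 probe sets beside the chosen one. Of those 41, 7 held the same values as another probe set of the same gene (5 for Rps12 and 1 each for Rps19 and Rpl23a), so 34 were distinct. Of the 21 distinct ones above the median gene signal 18 were positive (median 0.18), and of the 13 at or below it 5 were positive (median -0.03). The probe sets of 7 members had both signs, among them Rpl41, Rpl3, Rpl27 and Rps3a1. Rpl41, which encodes the smallest ribosomal protein, differed by 0.12 on its brightest probe set and by -0.84 on 1 dimmer one. With the probe sets of a gene averaged, the difference was 0.51 for Rps20, 0.36 for Rplp0, 0.31 for Rps19 and 0.072 for Rplp1.

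**Figure D3:**
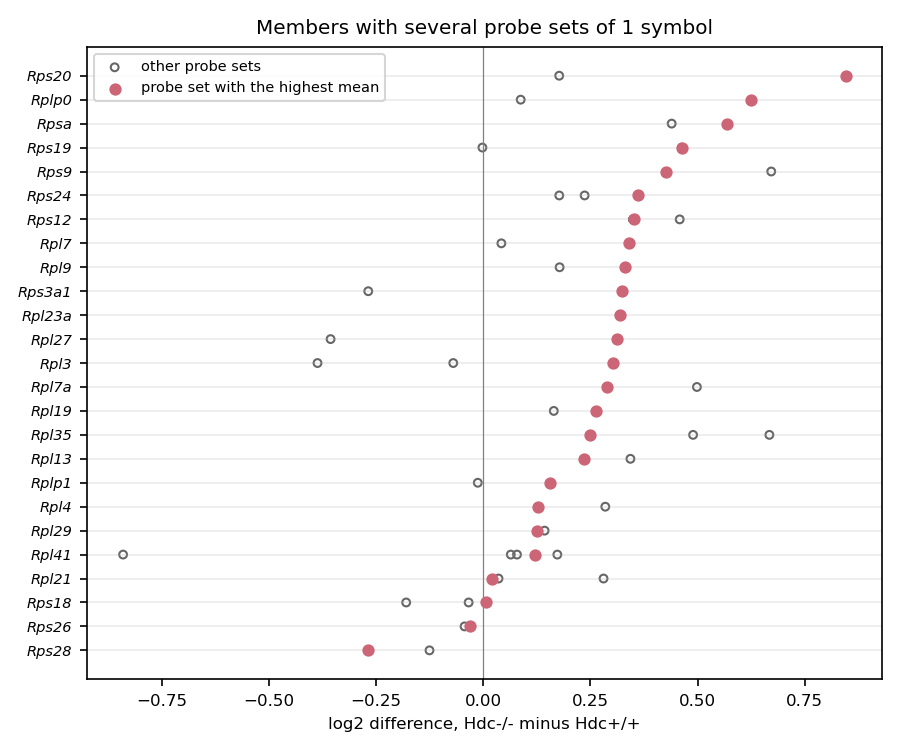
Log2 difference between genotypes (x axis) for the 25 members with several probe sets of 1 symbol (rows), with the chosen probe set filled and the others open. The brightest probe set of Rpl41 lies at 0.12 and its outlying one at -0.84.

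Probe sets that carry a standard ribosomal protein symbol together with other symbols, most often predicted genes or pseudogenes, gave a second view that the choice of members did not use. No gene is named from them alone. There were 57, with a median difference of 0.25, against 0.01 over all 1814 probe sets with several symbols. Of the 57, 48 were positive (84.2%), against 51.8% of those 1814. The groups did not overlap for 30 in the higher direction (52.6%), against 21.4%, and for 3 in the lower direction (5.26%), against 18.9%. By limma 0 of them passed after adjustment over all probe sets, while an unadjusted p under 0.05 was reached by 8 in the higher and 0 in the lower direction, against 61 and 93 of the 1814. Without the probe sets that also list a small nucleolar RNA, it was reached by 6 of 48 in the higher direction. Around their means they had medians of -0.06 and -0.21 on the Hdc+/+ arrays and of 0.06 and 0.22 on the Hdc-/- arrays, the order that the members had. The 10 of them that name a dim standard member were all positive (median 0.44), although the 7 members' own probe sets had a median of -0.11. Of those 7, Rpl27a (0.61) and Rpl39 (0.01) were positive on their own probe sets too. Among the 10, the probe set of Rplp2 (0.48) and the dimmer Rpl27a one (0.60) also list a small nucleolar RNA. The 15 probe sets named as ribosomal protein pseudogenes had a median of 0.10.

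Many ribosomal protein genes carry small nucleolar RNAs in their introns, which guide the modification of ribosomal RNA. In the RefSeq gene table of assembly GRCm38.p6, 59 small nucleolar RNAs lay inside standard ribosomal protein genes, and 19 of them, from 18 host genes, had a probe set of their own. They had a median difference of 0.59, which was 0.34 without Hdc+/+ array 2 and 0.27 without Hdc-/- array 2. Of the 19, 18 were positive (94.7%), against 54.1% of all genes. The other 55 measured genes named Snora or Snord had a median of 0.64, so the hosted ones did not stand out among them. By limma 0 of the 19 passed after adjustment, while 5 (26.3%) had an unadjusted p under 0.05 in the higher direction and 0 in the lower, against 3.68% and 4.87% of all genes. Among the other 55 the higher count was 29 (52.7%).

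Snord72, inside Rpl37, read 6.96 and 6.31 on the Hdc+/+ arrays and 7.45 and 8.10 on the Hdc-/- arrays (difference 1.14, SE 0.31, limma adjusted p = 0.451). Snord15a, inside Rps3, read 8.09 and 7.55 against 8.49 and 9.14 (difference 0.99, SE 0.30, limma adjusted p = 0.466). Snord73a, inside Rps3a1, read 7.59 and 6.99 against 7.88 and 8.81 (difference 1.05, SE 0.36, limma adjusted p = 0.526), and differed by 0.59 without Hdc-/- array 2. In all 3 the groups did not overlap and Hdc-/- array 2 was highest. Snora78, inside Rps2, was the 1 hosted RNA with a negative difference (-0.16, SE 0.16). Hdc-/- array 2 was highest for 18 of the 19, against 29.6% of all genes, and Hdc+/+ array 2 lowest for 17, against 29.9%. Among the other 55 Snora and Snord genes these counts were 49 and 47, so the order was not particular to the hosted ones. Of the 13 whose host was a member, 10 had a larger difference than the host. Among these hosts Rpl37, Rps16, Rpl39 and Rpl17 were read on probe sets below the median gene signal. Probe sets that list Rps16 or Rpl39 with other symbols differed by 0.36 and 0.40. The medians around gene means were -0.06 and -0.52 on the Hdc+/+ arrays and -0.01 and 0.58 on the Hdc-/- arrays, the same order of arrays as for the members, with wider gaps.

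**Figure D4:**
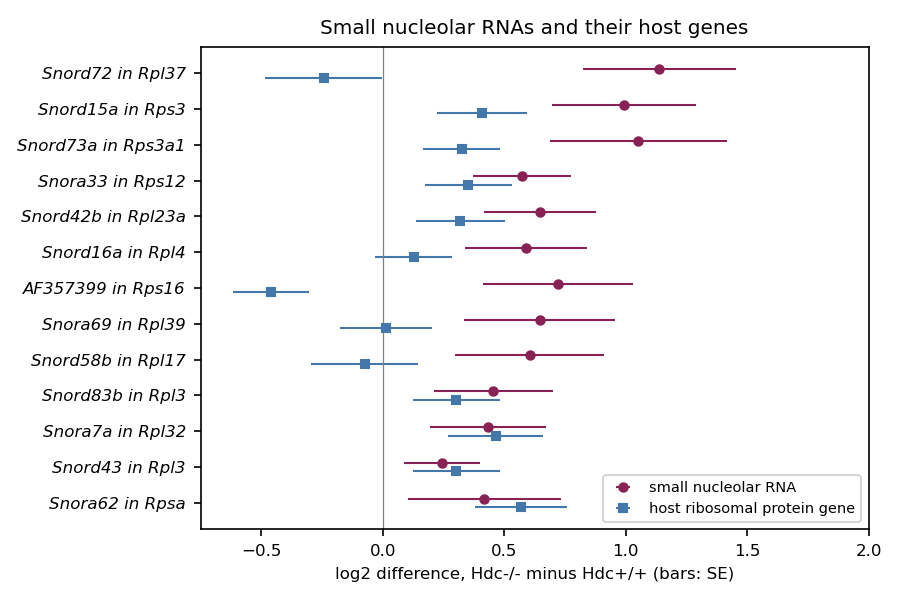
Log2 difference between genotypes (x axis) with its SE for 13 small nucleolar RNAs (circles) and the member gene that holds each (squares). Snord72 lies at 1.14 and its host Rpl37, read on a probe set below the median gene signal, at -0.24.

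Other genes of translation were taken from lists, and their counts without overlap stand against 21.5% of all genes higher and 17.6% lower. Fau, which encodes a 40S protein under another name, read 9.63 and 9.65 against 9.67 and 10.06 (difference 0.23, SE 0.19; 0.030 without Hdc-/- array 2). Of 8 elongation factor genes 4 were higher without overlap and 0 lower, with a median of 0.10. Eef1b2, of the complex that reloads elongation factor 1A, differed by 0.46 (SE 0.17), Eef1d of the same complex by 0.43 (SE 0.17) and Eef2, which moves the ribosome along the mRNA, by 0.35 (SE 0.17). Of 32 initiation factor genes 11 (34.4%) were higher without overlap and 0 lower, with a median of 0.09. Eif4a2, a helicase gene, differed by 0.87 (SE 0.31). Its difference was 0.55 without Hdc+/+ array 2, 0.53 without Hdc-/- array 2 and 0.37 as the mean of its probe sets. Eif3b differed by 0.43 (SE 0.16) and Eif3f by 0.35 (SE 0.18), or 0.22 without Hdc-/- array 2. Of 14 genes listed for TOP mRNAs outside the ribosomal proteins 6 were higher without overlap and 1 lower (median 0.20). Of these 14, 5 were initiation factors already counted, and the 9 others had 2 higher without overlap and 1 lower. The lower one was Vim, the vimentin gene of mesenchymal cells, which differed by -0.60 (SE 0.16). No gene of these lists passed by limma after adjustment over all genes.

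Genes that build ribosomes had another order of arrays than the members. Of 40 ribosome assembly genes 19 (47.5%) were higher without overlap and 2 lower (median 0.23), against 21.5% and 17.6% of all genes, and by limma 7 (17.5%) reached an unadjusted p under 0.05 in the higher direction and 0 in the lower, against 3.68% and 4.87%. Nop10, of the particles that convert uridine to pseudouridine, read 7.78 and 7.67 against 8.33 and 8.39 (difference 0.63, SE 0.16). Bysl, which acts on the small subunit, differed by 0.65 (SE 0.16) and Polr1b, of RNA polymerase I, by 0.60 (SE 0.16). The assembly genes had medians of -0.12 and -0.11 on the Hdc+/+ arrays and of 0.20 and 0.02 on the Hdc-/- arrays, so Hdc-/- array 1 was the higher one. Among 18 genes of mTOR and S6 kinase signalling and TOP mRNA binding, 6 (33.3%) were higher without overlap and 1 lower (median 0.10, or 0.044 without Hdc-/- array 1 and 0.17 without Hdc-/- array 2). Myc, the transcription factor that drives ribosome production, read 5.56 and 5.72 against 6.50 and 6.32 (difference 0.77, SE 0.17, limma adjusted p = 0.371), Mtor differed by 0.50 (SE 0.16) and Tsc2, an inhibitor of mTORC1, by 0.37 (SE 0.16).

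The p53 response genes had a median of -0.15 over 10 genes, with 1 higher without overlap and 4 lower, against 21.5% and 17.6% of all genes. Cdkn1a, the cell-cycle inhibitor that p53 induces, read 10.41 and 10.14 against 9.24 and 9.75 (difference -0.78, SE 0.23, limma adjusted p = 0.465), Mdm4 differed by -0.41 (SE 0.21) and Ccng1 by -0.34 (SE 0.19). Without Hdc-/- array 2 these were -0.18 and -0.17. The 71 mitochondrial ribosomal protein genes, whose products serve the separate ribosomes of mitochondria, had a median of 0.17, and 32 (45.1%) were higher without overlap. Their medians on the arrays were -0.07 and -0.08 against 0.11 and 0.06. The difference between the cytosolic and the mitochondrial genes was not tested.

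**Figure D5:**
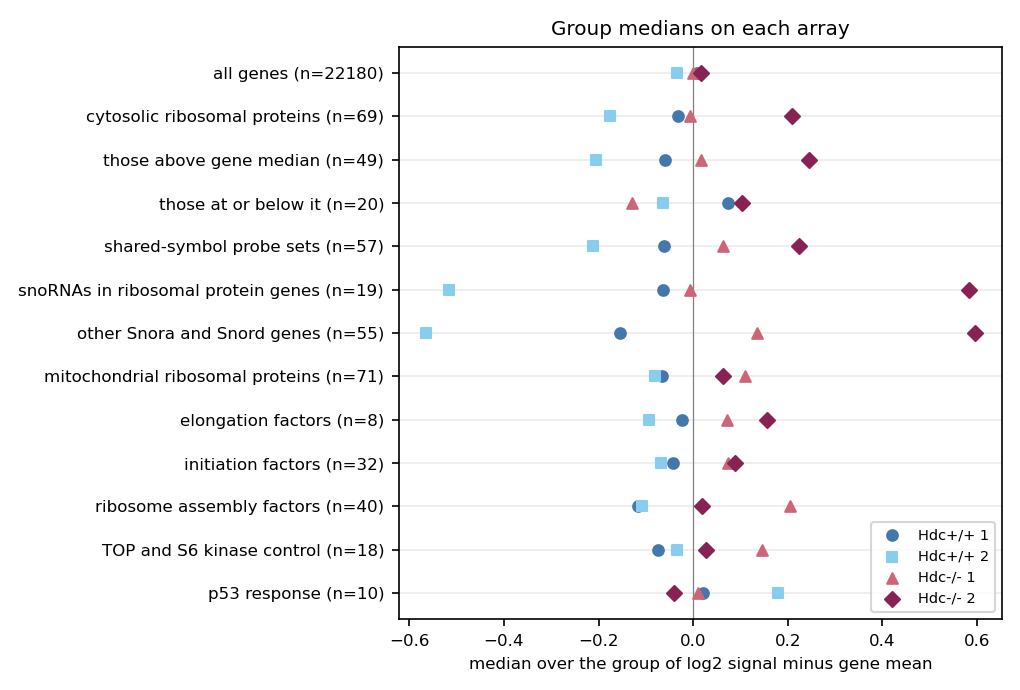
Median over each group of the log2 signal minus the gene mean (x axis) on the 4 arrays, with the number of genes or probe sets of each group. The members above the median gene signal and the small nucleolar RNAs are lowest on Hdc+/+ array 2 and highest on Hdc-/- array 2. The members at or below that signal are lowest on Hdc-/- array 1 (-0.13). Mitochondrial ribosomal proteins and assembly factors are highest on Hdc-/- array 1.

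Differences are given by the annotated start as a description, with no test. The 10 standard members with a C and 4 pyrimidines at the annotated start had a median difference of 0.21 and the other 35 with a window one of 0.24. Of the first, 4 (40%) were higher without overlap, and of the second 21 (60%). The shares outside the members were 18.9% of genes with such a start and 21.6% of genes with another. Without Hdc-/- array 2 the medians were 0.0070 and 0.15. Outside the members, 456 measured genes with such a start had a median of 0.01 and 16480 with another start had one of 0.02. Annotated starts can lie away from the base where transcription begins, and no start was measured here.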

How the data were processed

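Stomach RNA of 4 mouse samples was hybridised to Affymetrix arrays. The authors deposited log2 probe set values, and the submitters' processing notes name RMA, Affymetrix Power Tools and oligo. Their roles, their versions and the genome build were not given in the sources used here. Platform annotation named 23521 of 41345 probe sets with 1 gene symbol and 1814 with several, and the brightest probe set over the 4 arrays stood for each of 22180 genes. RMA summarises probes that can bind near-identical transcripts, and ribosomal protein genes have many processed pseudogenes, so a signal cannot always be assigned to 1 gene. No dim gene was left out.

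Differences were tested with limma 3.58.1 (R 4.3.3) without covariates, adjusted over all genes (Benjamini-Hochberg, threshold 0.05); SE is the moderated error. Degrees of freedom were 2 (residual) and 3.62 (prior). The fit was tested on simulated data with added differences larger than that of any member. That test could not show whether differences as small as those of the members would be found. An exact permutation test here cannot give a p below 0.333. Lists are described by counts and medians, with no list test. The members, lists and rules were chosen with earlier results of these data known. The naming rule took the 8 non-overlapping members per direction with the smallest p (6 existed below), the copies, the stalk and 5S genes, and 3 genes per list; further members were named after their values were seen. The probe sets with several symbols and the crossed pairing were added after seeing the data. Same-numbered arrays did not deviate together (correlation -0.12 across genes), so replicate numbers were not used as pairs.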

Additional observations from a re-analysis of the deposited data

How the results depend on the processing

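In fits of all 4 arrays, 0 members and 0 pathway genes passed adjustment by limma. The median difference of the members stayed above 0 under all 16 alternatives, but not all of these could change it. It stayed at 0.21 with every probe set tested, a trended and robust prior, a replicate block or a crossed pairing, which leave each difference unchanged. Among the others it ran from 0.17 (cyclic loess) to 0.28 (dimmest 50% of genes left out) and was 0.25 over the probe sets with several symbols. With an array left out it ran from 0.11 to 0.28. Members higher at an unadjusted p under 0.05 numbered 6 with arrays centred or with a trended and robust prior, and 0 to 11 with an array left out (a fit in which the lone array is assumed to vary like the other pair), being 0 without Hdc+/+ array 2 or Hdc-/- array 2 and 11 without Hdc-/- array 1. Lower ones numbered 1 and 0 with the dimmest 25% and 50% left out, 1 with the replicate block, and 0 to 1 with an array left out. Members higher without overlap numbered 36 to 52 with an array left out, with 52 without Hdc-/- array 1 (75.4%, against 39.9% of all genes). Lower ones numbered 2 with the dimmest 50% left out, since dim members drop out, and 7 to 17 with an array left out, being 13 without Hdc+/+ array 2 (18.8%, against 32.9%) and 17 without Hdc-/- array 2 (24.6%, against 33.6%). Non-overlap is easier with 3 arrays, so these counts are read against those shares and not against the counts with 4. With the replicate block, an unadjusted p under 0.05 was reached by 2 members in the higher and 1 in the lower direction. A crossed pairing of the numbers, chosen after seeing the data because of the negative correlation, gave 5 higher and 2 lower. Of 44 genes named by the rule and checked, 7 changed sign when an array was left out. These were Rpl5 (-0.51 to 0.17), Rplp2 (-0.46 to 0.29), Rpl22l1 (-0.35 to 0.16), Rpl10l (-0.41 to 0.034), Rpl11 (-0.027 to 0.34), Rps23rg1 (-0.15 to 0.093) and Rps19bp1 (-0.12 to 0.067), each with a main difference under its error. Under the other settings 0 changed sign, but several of those settings leave each difference as it is. Members named outside the rule changed sign with an array left out as well. Among them were Rps10 (-0.062 to 0.49), Rps18 (-0.22 to 0.23), Rpl28 (-0.14 to 0.13), Rpl37 (-0.53 to 0.046) and Rps26 (-0.083 to 0.021). With 2 samples per group and no background values for single probe sets, small differences of dim members could not be resolved.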
